A study of Bos taurus with 6 samples.

Results

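The genes described here encode chaperones and folding enzymes of the endoplasmic reticulum (ER) that prepare collagen for secretion: HSPA5, HSP90B1, PDIA3, PDIA4, P4HB, CALR, SERPINH1 and XBP1. Their probesets were found by the gene symbol given in the deposited dCHIP matrix. Of the 8 genes, 7 had a probeset under their symbol, with 11 probesets among the 24016 that were tested, and every one of the 11 is shown. HSPA5 and PDIA4 had 3 probesets each, called here brightest, second and dimmest by their mean level, and the other genes 1 each, so the probesets are not 11 independent genes. XBP1 had no probeset under its symbol and was skipped by the rule.

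Procollagen chains enter the ER unfolded, are hydroxylated on proline and lysine, receive disulphide bonds near their ends and then wind into a triple helix. General chaperones hold the chains soluble, oxidoreductases form the bonds, and SERPINH1 (HSP47) binds the finished helix until the chain leaves for the Golgi. Chondrocytes secrete large amounts of collagen, and ER chaperones are among the genes that the unfolded protein response raises when folding capacity is exceeded.

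RNA came from normal articular cartilage, grade 1 in the labels, of the medial and lateral knee condyles of 2 mature cattle, 14 to 30 months old, with no treatment named. Each animal gave 1 array of the superficial zone (SZ, the upper 10% of the microtome sections), 1 of the middle zone (MZ, the middle 40%) and 1 of the deep zone (DZ, the lower 30%), which makes 6 arrays and n = 2 per zone. Sections were 50 µm thick, about 200 µm was discarded between neighbouring zones, and 5 ng of total RNA was amplified per array, per the labels' protocols. The series asks which genes differ between the zones. The zones are slices of whole tissue cut down to the calcified cartilage, so less RNA per cell and fewer cells of a type cannot be told apart.

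Levels are log2 expression values as deposited, so a difference of 1 is 2-fold. The median probeset read 4.42 to 4.46 on the 6 arrays, the upper quartile lay between 6.19 and 6.31, and the highest probeset read 13.73 to 14.15. The DZ array of animal 1 stood apart in an added hybridisation control, with the 6 bioB probesets at a median of 6.79 against 9.38 to 10.85 on the other 5 arrays. The cyclophilin control, measured near the 3′ and the 5′ end of its transcript, gave a 3′ minus 5′ difference in log2 of 2.24 and 1.69 in SZ, 2.23 and 2.66 in MZ, and 3.30 and 2.54 in DZ. Of the other 3 such controls, eIF-4E gave 2.67 and 2.08, 2.5 and 3.02, and 2.67 and 2.90 in SZ, MZ and DZ. Its zone means rose in the same order as those of cyclophilin, though narrowly from MZ to DZ. The remaining controls did not share that order: gapd gave −0.09 and 0.05, 0.92 and 0.30, and 0.45 and 0.26. For ef1a the values were −3.40 and −3.41, −3.93 and −3.24, and −4.82 and −3.42. The 27 Bacillus control probesets had medians of 5.88 and 6.24 in SZ, 4.90 and 4.17 in MZ, and 3.61 and 3.56 in DZ, so this technical signal was lowest in the deep zone in both animals. The DZ arrays also carry another code in their description than the SZ and MZ arrays, so that code and the deep zone cannot be told apart.

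Summed signals of marker genes were set beside the chaperones, since tissue other than cartilage can enter a slice. At an adjusted p under 0.05, limma called 2.75% of all probesets for SZ minus DZ and 0.704% for MZ minus DZ. The 7 measured chondrocyte markers, among them COL2A1 and ACAN, summed to 15.05 to 15.52 in SZ, 15.53 to 15.59 in MZ and 15.54 to 15.62 in DZ on the log2 scale. The 6 measured osteoblast markers summed to 9.01 to 10.11 in SZ, 7.91 to 10.29 in MZ and 14.16 to 14.49 in DZ, with 4 of 6 lower in SZ than in DZ by the test and 3 of 6 lower in MZ. Osteoclast markers (5 measured) were at 8.26 to 8.54 in SZ and MZ and at 11.27 to 11.84 in DZ. The defining bone markers IBSP and ACP5 had zone means of 4.49 and 5.05 in SZ, 5.64 and 3.36 in MZ, and 10.87 and 11.21 in DZ. Endothelial (6 measured) and leukocyte markers (6 measured) were also higher in DZ, at 8.05 to 9.92 and 9.29 to 9.34, against highest values of 6.40 and 6.73 in the other zones, with 3 of 6 and 5 of 6 lower in SZ than in DZ by the test. The 4 measured adipocyte markers also summed highest in DZ, at 8.42 to 9.97, with 0 calls. In SZ they summed to 6.68 to 7.33 and in MZ to 5.85 to 7.28. The largest part of the DZ sum was FABP4, which read 7.81 and 9.92 there. For SZ minus DZ, FABP4 gave −2.28, LPL −1.39, PLIN1 −0.04 and ADIPOQ 0.93, so these markers did not move as a set. PLIN1 and ADIPOQ read near or below the lower quartile of the arrays. Red cell markers (4 measured) summed to 5.39 to 5.50, 5.10 to 5.39 and 4.96 to 5.18 in SZ, MZ and DZ, and muscle markers (4 measured) to 6.10 to 6.25, 6.25 to 6.44 and 6.12 to 6.68, with 0 calls in both lists. The 4 measured synovial markers summed to 13.48 to 13.61, 10.68 to 12.36 and 10.20 to 10.22, with 1 higher and 1 lower in SZ than in DZ. Plasma cells, which are rich in ER chaperones, had 2 measured markers: JCHAIN had zone means of 4.54, 4.14 and 4.49 and CD79A of 2.65, 2.47 and 2.14 in SZ, MZ and DZ.

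**Figure D1:**
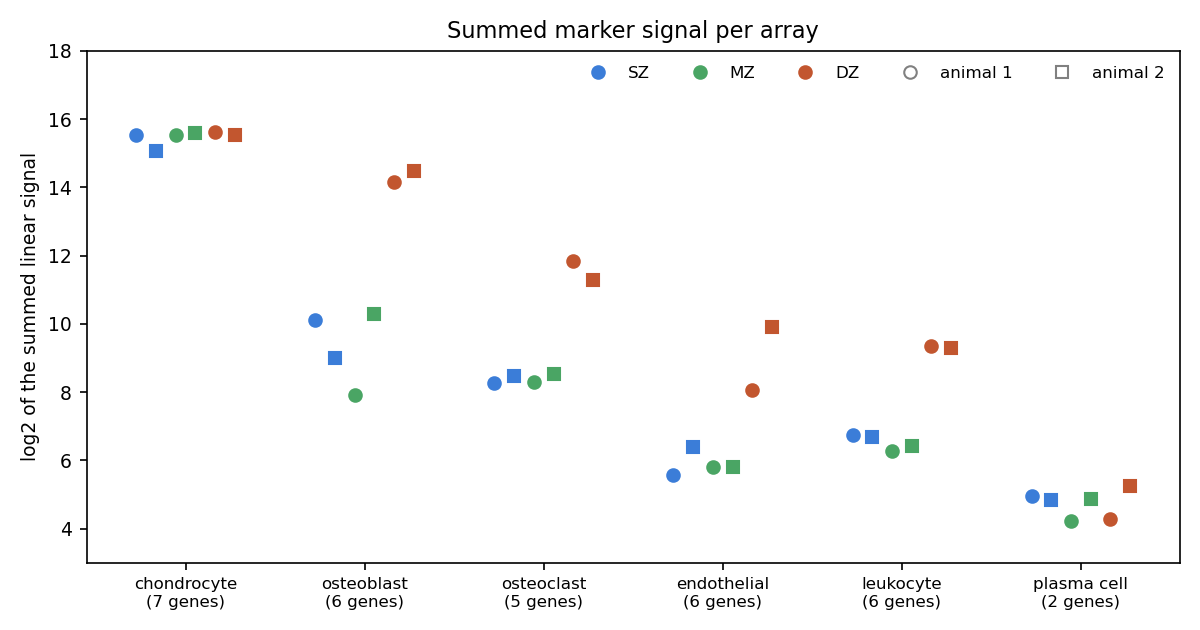
Summed marker signal on each array, as log2 of the sum of linear values over the measured genes of 6 marker lists. Colour gives the zone and symbol the animal. Chondrocyte markers lie between 15.05 and 15.62 on every array, and osteoblast markers are at 14.16 and 14.49 in DZ against at most 10.29 in the other zones.

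All 11 chaperone probesets had their highest zone mean in DZ, but none of them passed limma's test between any zones. By brightest probeset, SERPINH1, PDIA4 and HSPA5 gave −0.92, −0.68 and −0.53 for SZ minus DZ. For MZ minus DZ they gave −0.75, −0.86 and −0.47. Other probesets of the same genes gave less in places. The second HSPA5 probeset gave −0.19 for MZ minus DZ, and the dimmest PDIA4 probeset −0.01 for SZ minus DZ. PDIA3, P4HB, CALR and HSP90B1 differed by under 0.3 in every pair of zones. For SZ against DZ the median difference over the 11 probesets was −0.52, beside 0.06 over all probesets, and for MZ against DZ it was −0.36, beside 0.06. These medians count every probeset of HSPA5 and PDIA4. With each gene by its brightest probeset, the middle value was that of CALR in both comparisons, −0.26 and −0.28. All 11 lay below 0 in both comparisons, beside 44.3% and 42.9% of all probesets. SZ minus MZ gave a median of 0.03, with 5 of 11 below 0, beside 49.7%. The levels were above the upper quartile of the array on all 6 arrays for 10 of the 11 probesets and on 5 for the dimmest HSPA5 probeset.

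**Figure D2:**
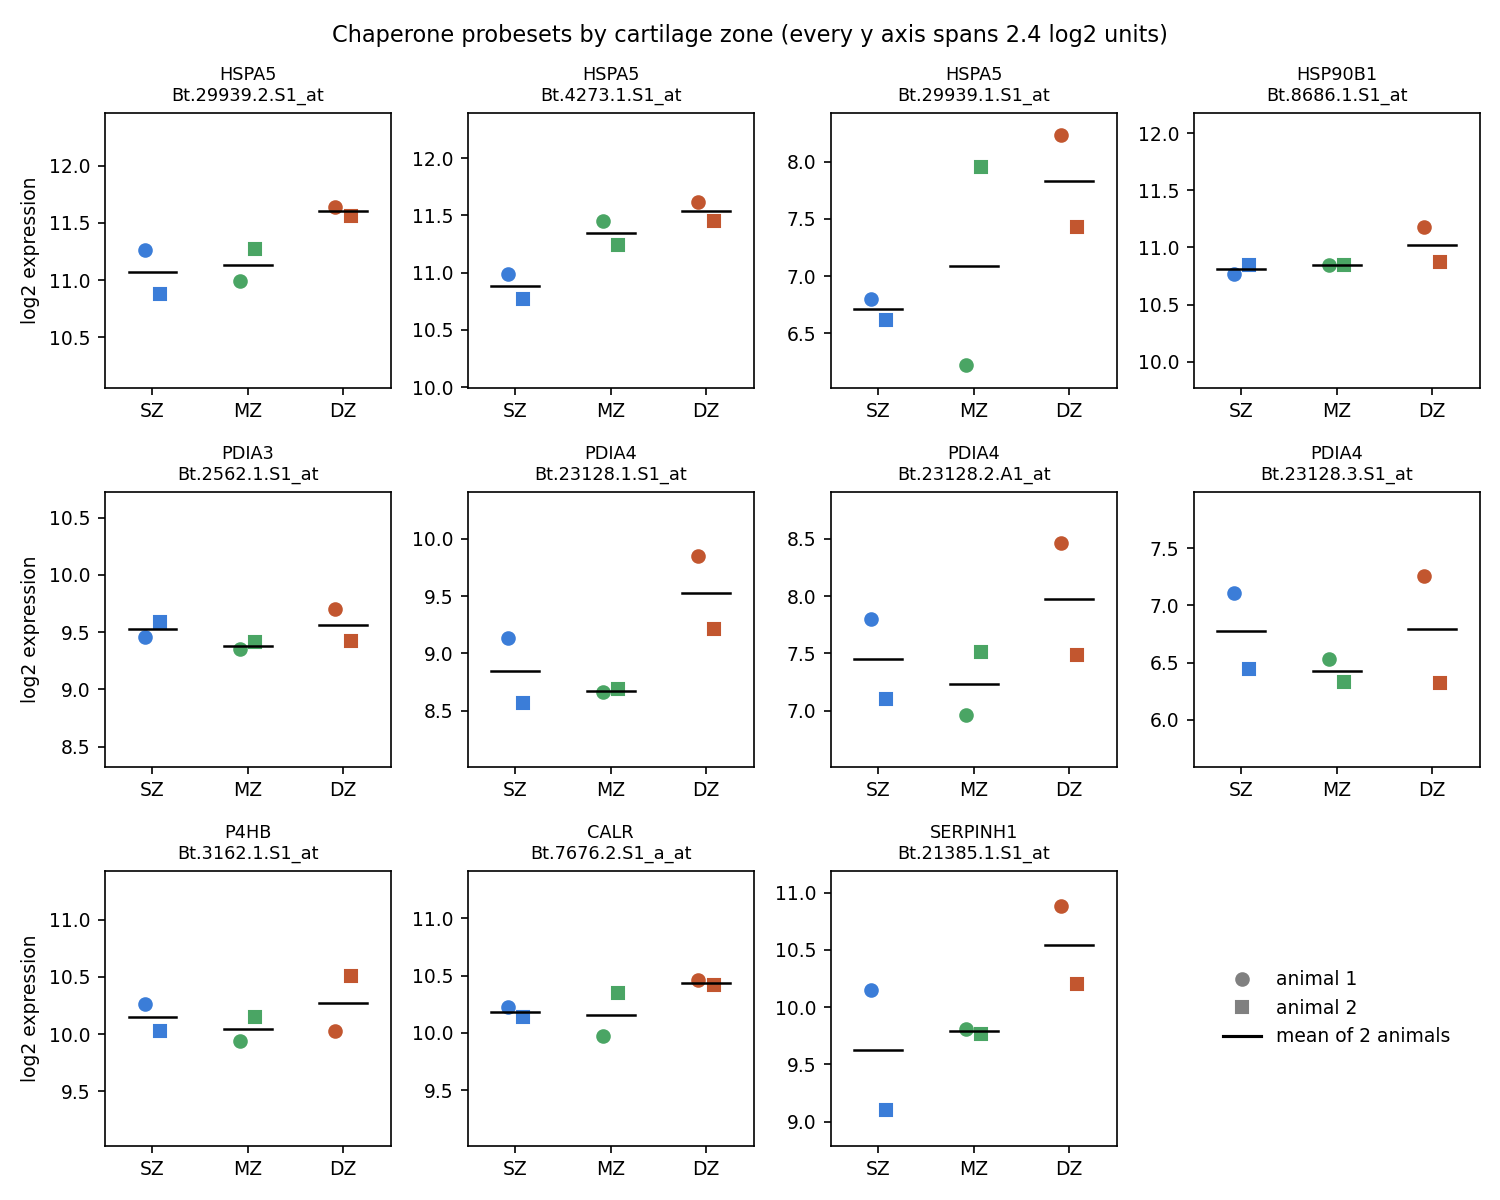
Log2 expression of the 11 chaperone probesets on every array, by zone. Circles are animal 1, squares animal 2 and bars the mean of the 2. Every panel spans the same range, and the DZ bar is the highest in each. Both DZ symbols lie above both SZ symbols in 7 of the 11 panels. These are every HSPA5 probeset, CALR, the brightest PDIA4 probeset and, narrowly, HSP90B1 and SERPINH1.

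HSPA5 encodes BiP, the Hsp70 of the ER, which binds unfolded chains and holds the sensors of the unfolded protein response inactive. Its brightest probeset read 11.26 and 10.88 in SZ, 10.99 and 11.27 in MZ, and 11.64 and 11.56 in DZ, for animals 1 and 2. Both DZ arrays lay above the other 4, and SZ and MZ overlapped. The difference was −0.53 for SZ minus DZ (SE 0.26, limma adjusted p = 0.355) and −0.47 for MZ minus DZ (SE 0.26, adjusted p = 0.641), and the 95% interval of the first ran from −1.16 to 0.10. For SZ minus MZ it was −0.06, with an interval of −0.69 to 0.56.

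The second HSPA5 probeset placed MZ with DZ instead. It read 10.99 and 10.77 in SZ, 11.45 and 11.24 in MZ, and 11.62 and 11.45 in DZ. Both SZ arrays lay below the other 4, and the animals gave nearly the same steps, −0.64 and −0.68 for SZ minus DZ and −0.46 and −0.47 for SZ minus MZ. The fitted difference of SZ and DZ was −0.66 (SE 0.22, interval −1.19 to −0.12, adjusted p = 0.204), its unadjusted p being 0.0241. That of SZ and MZ was −0.47 (SE 0.22, adjusted p = 0.638).

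The dimmest HSPA5 probeset had its widest spread between the animals in MZ. It read 6.80 and 6.62 in SZ, 6.22 and 7.95 in MZ, and 8.23 and 7.43 in DZ. The MZ arrays bracketed both SZ values, so that animal 1 gave −2.0 for MZ minus DZ and animal 2 gave 0.51. The difference for SZ minus DZ was −1.12, the widest of the 11 probesets in that comparison, with an SE of 0.57 and an interval of −2.51 to 0.27 (adjusted p = 0.375). Across the 6 arrays the brightest and second HSPA5 probesets correlated with r = 0.69, the brightest and dimmest with 0.80 and the second and dimmest with 0.48, values that share the same arrays and are given without a test.

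HSP90B1 encodes GRP94, the Hsp90 of the ER, which folds a narrower set of clients. Its probeset read 10.77 and 10.85 in SZ, 10.85 and 10.85 in MZ, and 11.18 and 10.87 in DZ. The only array apart from the rest was the DZ array of animal 1, and the 5 others lay within 10.77 to 10.87. The differences were −0.22 for SZ minus DZ (interval −0.79 to 0.36, adjusted p = 0.685), −0.18 for MZ minus DZ (−0.75 to 0.40, adjusted p = 0.863) and −0.04 for SZ minus MZ (−0.61 to 0.54, adjusted p = 0.989).

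Calreticulin, the product of CALR, is a calcium-binding lectin that retains glycoproteins until they are folded, and PDIA3 (ERp57) is the oxidoreductase that works with it. The CALR probeset read 10.23 and 10.14 in SZ, 9.97 and 10.35 in MZ, and 10.46 and 10.42 in DZ. Both DZ arrays were the highest, by as little as 0.07 over the MZ array of animal 2, and the difference of SZ and DZ was −0.26 (SE 0.24, interval −0.85 to 0.34, adjusted p = 0.638). PDIA3 was the flattest of the 7 genes, at 9.46 and 9.59 in SZ, 9.35 and 9.41 in MZ, and 9.70 and 9.42 in DZ, a range of 0.35 over the 6 arrays. SZ minus DZ was −0.04 for PDIA3 (interval −0.62 to 0.54, adjusted p = 0.959), with the animals going opposite ways at −0.25 and 0.17. Both intervals leave out a 2-fold difference in either direction.

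P4HB encodes protein disulphide isomerase, which is also the β subunit of the prolyl 4-hydroxylase that stabilises the collagen helix. It read 10.26 and 10.03 in SZ, 9.94 and 10.15 in MZ, and 10.03 and 10.51 in DZ. The zones overlapped in all 3 comparisons, and P4HB was the exception in DZ, where animal 2 read above animal 1. Its differences were −0.12 for SZ minus DZ, −0.22 for MZ minus DZ and 0.10 for SZ minus MZ, each with an SE of 0.26 (adjusted p = 0.852, 0.848 and 0.967), and the 3 intervals stayed within −0.86 to 0.74.

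PDIA4 (ERp72) is an oxidoreductase of the same family as P4HB and PDIA3, and its 3 probesets did not give the same size of difference. The brightest read 9.13 and 8.57 in SZ, 8.66 and 8.69 in MZ, and 9.85 and 9.21 in DZ. Both DZ arrays lay above the other 4. The difference was −0.68 for SZ minus DZ (SE 0.26, interval −1.32 to −0.04, adjusted p = 0.261) and −0.86 for MZ minus DZ (SE 0.26, interval −1.50 to −0.21, adjusted p = 0.351), with unadjusted p of 0.0413 and 0.0172.

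The other PDIA4 probesets overlapped between all zones. The second read 7.80 and 7.10 in SZ, 6.96 and 7.51 in MZ, and 8.46 and 7.49 in DZ, with −0.52 (SE 0.39) for SZ minus DZ and −0.73 (SE 0.39) for MZ minus DZ. The dimmest read 7.11 and 6.44, 6.53 and 6.33, and 7.26 and 6.32 in the same order. Its SZ minus DZ difference was −0.01 (interval −0.67 to 0.64, adjusted p = 0.987), so this probeset separated the animals and not SZ from DZ. Over the 6 arrays the brightest PDIA4 probeset correlated with the others with r = 0.92 and 0.73.

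SERPINH1 encodes HSP47, the chaperone that is specific to collagen and binds its folded triple helix. Its probeset read 10.15 and 9.10 in SZ, 9.81 and 9.77 in MZ, and 10.88 and 10.20 in DZ. DZ was highest in each animal, and its lower array stood 0.05 above the higher SZ array when both are taken to 2 decimals. SZ minus DZ was −0.92 (SE 0.30, interval −1.65 to −0.18), a level 1.89-fold higher in DZ, with an unadjusted p of 0.0222 and an adjusted p of 0.196. MZ minus DZ was −0.75 (SE 0.30, interval −1.49 to −0.02, adjusted p = 0.495). The SZ arrays of the 2 animals were 1.06 apart, more than the distance between the zone means, and SZ minus MZ was 0.34 in animal 1 and −0.67 in animal 2.

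A probeset outside the rule is titled as X-box binding protein 1-like in the deposited matrix (LOC788943); it was chosen after its values were seen, and the RefSeq table does not hold that symbol. XBP1 is the transcription factor whose mRNA is spliced by the ER sensor ERN1 and which raises chaperone genes. The probeset read 9.99 and 9.89 in SZ, 10.47 and 10.05 in MZ, and 10.41 and 10.05 in DZ. It was lowest in SZ in both animals, by −0.29 against DZ (SE 0.23, adjusted p = 0.567) and −0.32 against MZ (SE 0.23, adjusted p = 0.790). An array value of this kind does not separate the spliced from the unspliced form.

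The counts for each comparison can be read against all probesets. For SZ minus DZ, limma called 0 of the 11 at an adjusted p under 0.05, beside 2.75% of all probesets (660 of 24016). At an unadjusted p under 0.05, 3 of 11 were lower in SZ (the second HSPA5 probeset, the brightest PDIA4 probeset and SERPINH1) and 0 higher, beside 9.37% and 8.22% of all probesets (17.6% in either direction). Both SZ arrays lay below both DZ arrays for 7 of 11 (3 of HSPA5, and HSP90B1, CALR, SERPINH1 and the brightest PDIA4 probeset), beside 19.1% of all, and 0 of 11 lay wholly above, beside 26.3%. For HSP90B1 and SERPINH1 the margin was narrow, with the nearest SZ and DZ arrays at 10.85 and 10.87 and at 10.15 and 10.20. SZ was lower in both animals for 8 of 11, beside 27.1% of all. The members were chosen with results of these data known and share arrays, so these shares are descriptions.

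For MZ minus DZ limma called 0 of 11 probesets, beside 0.704% of all. At an unadjusted p, 2 of 11 were lower in MZ (the brightest PDIA4 probeset and SERPINH1), and 0 higher, beside 5.59% and 4.34% of all (9.93% in either direction). MZ lay wholly below DZ for 6 of 11, beside 15.2%, and wholly above for 0, beside 22.7%, although PDIA3 and HSP90B1 did so by 0.01 and 0.02. MZ was lower in both animals for 8 of 11, beside 24.6%. For SZ minus MZ limma called 0 of 11 at the adjusted threshold, beside 0.0416% of all, and 0 of 11 at an unadjusted p, beside 8.84%. SZ lay wholly below MZ for the second HSPA5 probeset and wholly above it for PDIA3, beside 17.5% and 17.7%. SZ was lower than MZ in both animals for 1 of 11, beside 27.1%. The limma F test for any difference between zones called 0 of 11 (1.84% of all probesets) and gave an unadjusted p under 0.05 for 2 of 11 (14.3% of all), the brightest PDIA4 probeset at 0.038 and SERPINH1 at 0.0471.

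The intervals state what the 6 arrays can leave out. For SZ minus MZ, 7 of 11 intervals lay within a 2-fold difference in either direction, and for SZ minus DZ and for MZ minus DZ 5 of 11 did. HSP90B1, PDIA3, P4HB and CALR were within 2-fold in all 3 comparisons. The intervals of HSPA5, PDIA4 and SERPINH1 reached past 2-fold in at least 1 comparison. With 2 arrays a zone, an exact two-sided permutation test of a single probeset that ignores the pairing by animal cannot go below p = 0.333. A permutation within animals has fewer arrangements still, so the fit across all probesets carries the tests.

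**Figure D3:**
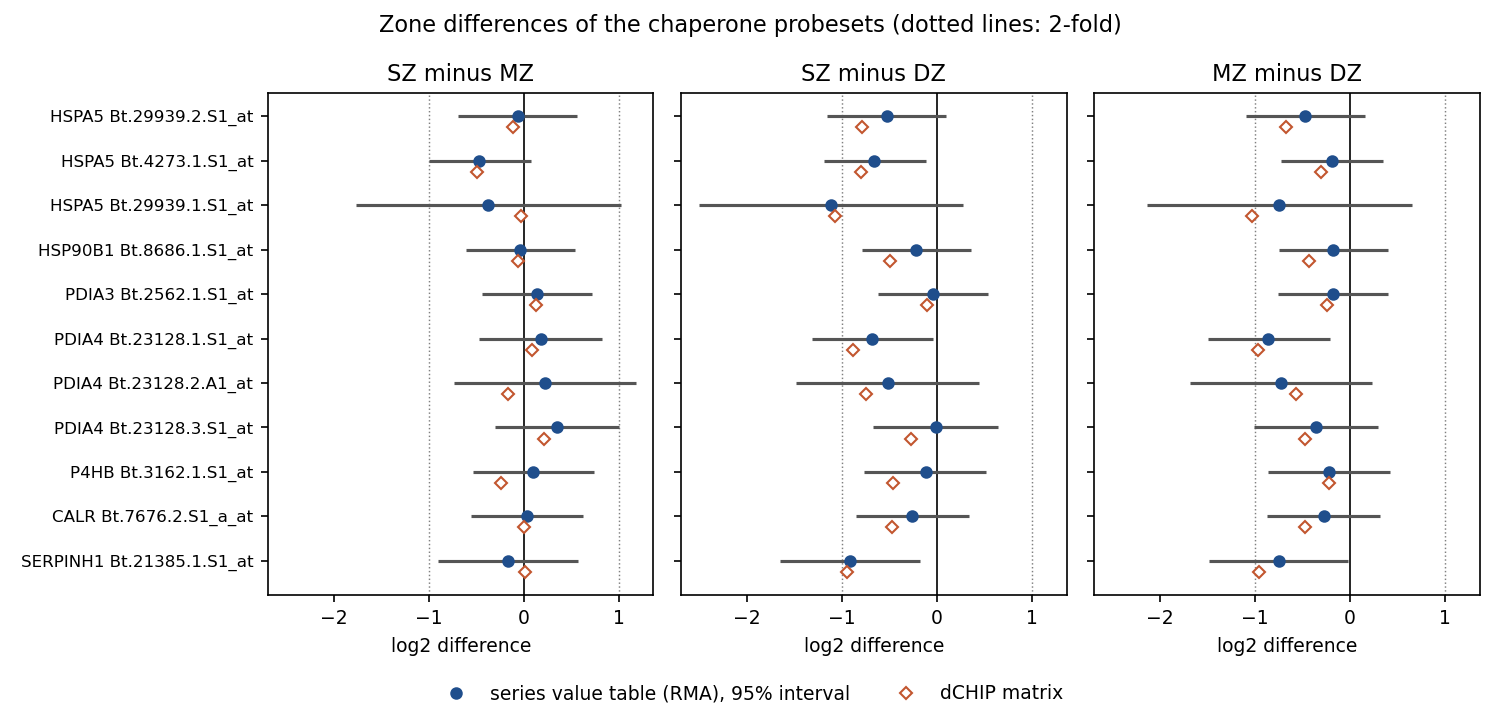
Log2 difference of each chaperone probeset between zones, with the zone named first minus the other. Filled points with lines are the fitted values and 95% intervals from the series value table, open diamonds the same fit to the dCHIP matrix, and dotted lines mark 2-fold. All filled points are left of 0 against DZ, from −1.12 to −0.01 for SZ and from −0.86 to −0.18 for MZ, and they lie on both sides of 0 for SZ minus MZ.

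The dCHIP matrix, the other deposited summary of the same arrays, gave larger differences from DZ. The median over the 11 probesets was −0.75 for SZ minus DZ and −0.48 for MZ minus DZ, again with all 11 below 0 (49.4% and 45.5% of all probesets), and for SZ minus MZ it was −0.03 with 7 of 11 below 0 (52.9%). limma called 0 of 11 in the 3 comparisons, beside 5.25%, 1.08% and 0.562% of all probesets. At an unadjusted p under 0.05, 5 of 11 were lower in SZ than in DZ, 4 lower in MZ than in DZ and 0 lower in SZ than in MZ, beside 11.8%, 5.97% and 5.5%. SERPINH1 came closest, at −0.95 for SZ minus DZ (SE 0.27, adjusted p = 0.0949). Both SZ arrays lay below both DZ arrays for 9 of 11 probesets there, beside 23.8% of all, and MZ arrays below DZ arrays for 9 of 11, beside 16.4%. SZ lay wholly below MZ for 1 of 11, beside 18.9%. For SZ minus DZ the smallest difference of the 11 was that of PDIA3 there (−0.11) and that of the dimmest PDIA4 probeset in the series value table (−0.01).

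How far the pattern rests on single arrays was measured by leaving each out. Without the DZ array of animal 1, the median for SZ minus DZ was −0.34 with 9 of 11 below 0, and for MZ minus DZ −0.21 with 9 of 11 below 0. Without the SZ array of animal 2, the median for SZ minus DZ was −0.29, with 9 of 11 below 0. Without the MZ array of animal 1 the median for MZ minus DZ was −0.12, and without that of animal 2 it was −0.67. SERPINH1 ranged from −1.27 to −0.57 for SZ minus DZ over the 12 alternative settings, and the second HSPA5 probeset from −0.80 to −0.63. Neither the part of the bone, endothelial, leukocyte and FABP4 signal in the DZ slices nor that of the Bacillus and 3′ minus 5′ controls in these differences was tested.

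The 2 animals differed in these genes in the outer zones. Animal 1 read higher than animal 2 for 9 of 11 probesets in SZ (median difference 0.23) and for 10 of 11 in DZ (0.31), but for 4 of 11 in MZ (−0.06). Over all probesets animal 1 was higher for 47.5%, 52.3% and 54.1% in SZ, DZ and MZ. P4HB in DZ and the dim HSPA5 probeset in MZ, at −0.48 and −1.72, went furthest the other way. The median zone differences, −0.52 for SZ minus DZ and −0.36 for MZ minus DZ, are of the same order as the medians between the animals in SZ and DZ. For the second HSPA5 probeset the animals lay closer together than the zones, at 10.99 and 10.77 in SZ and 11.62 and 11.45 in DZ.

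Pairs of the 7 genes, each by its brightest probeset, correlated over the 6 arrays with a median r of 0.59 over 21 pairs, from −0.29 to 0.93. PDIA4 and SERPINH1 had the highest r (0.93), and HSPA5 correlated with both CALR and SERPINH1 at 0.89. P4HB was at −0.29 with HSP90B1 and with PDIA3. These values rest on 6 arrays from 2 animals and describe only how the readings moved together.

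Among 6403 named probesets whose range was at least 1 log2 unit, the genes most like each chaperone over the 6 arrays were also listed, by Pearson's r. They were RANBP1, IMPA1 and ATP2A2 for HSPA5 (r = 0.986, 0.978 and 0.977), ATP2A2 being the calcium pump that fills the ER. For SERPINH1 they were AAAS, LPCAT1 and MRPL16 (0.981, 0.981 and 0.979), and for PDIA4 SC5D, CYB5B and KLF6 (0.996, 0.988 and 0.985). CALR was followed by BNIP3, SLC20A2 and NARS1 (0.999, 0.992 and 0.986), and HSP90B1 by TMCC1 and GINS3 (0.999 and 0.998). Both of the latter, like HSP90B1, stood apart mainly on the DZ array of animal 1. There TMCC1 read 6.44, against 4.31 to 4.87 on the other arrays, and GINS3 4.13, against 2.24 to 2.80. PDIA3 and P4HB were most like RPS6KA3, FOSL2 and RAB8B (0.988, 0.982 and 0.967) and GSTM1, DAXX and FNBP1 (0.966, 0.964 and 0.962). With 6 values and 6403 candidates these r are a description of these arrays, with no test.

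Other genes of the secretory pathway were listed by role. Their calls stand beside 2.75% of all probesets for SZ minus DZ, 0.704% for MZ minus DZ and 0.0416% for SZ minus MZ. Of 11 measured genes for collagen hydroxylation and glycosylation, 2 were lower in SZ than in DZ and the other 9 missed the threshold (median difference −0.65, against 0.06 over all probesets). None of the 11 passed for SZ minus MZ or MZ minus DZ. COLGALT2, which adds galactose to hydroxylysine of collagen in the ER, read 7.96 and 7.37 in SZ, 10.76 and 9.64 in MZ, and 11.85 and 11.28 in DZ. The zones did not overlap and followed the depth of the tissue. It was lower in SZ than in DZ by −3.90 (SE 0.25, limma adjusted p = 0.00395), 14.9-fold, and it passed in 12 of 12 alternative settings. SZ minus MZ was −2.53 (SE 0.25, adjusted p = 0.0542) and MZ minus DZ −1.37 (SE 0.25, adjusted p = 0.118), and the first of these passed in the dCHIP matrix (−2.66, adjusted p = 0.0268). Its probeset is of a type whose probes can match several related transcripts.

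PLOD1, a lysyl hydroxylase whose products COLGALT enzymes glycosylate, read 8.39 and 7.46 in SZ, 9.47 and 8.55 in MZ, and 9.78 and 8.86 in DZ. The animals differed by more than 0.9 in each zone, and within each animal SZ was lowest. SZ minus DZ was −1.39 (SE 0.22, adjusted p = 0.0339), a call kept in 5 of 12 alternative settings and lost without the animal block and without any single array, with adjusted p up to 0.29. The dim second PLOD1 probeset, at a mean level of 1.96, gave 0.14. The catalytic partners of P4HB did not pass, P4HA1 at 0.51 and P4HA2 at −0.53 for SZ minus DZ (adjusted p = 0.367 and 0.445). P3H2, a prolyl 3-hydroxylase, read 1.64 for SZ minus MZ (adjusted p = 0.294) and −1.31 for MZ minus DZ (adjusted p = 0.363).

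Of 21 other measured ER folding factors, 1 was lower in SZ than in DZ and 20 did not pass (median −0.36 beside 0.06), and 0 passed in the other comparisons. FKBP7, a prolyl isomerase of the ER, read 6.47 and 6.45 in SZ, 7.06 and 7.14 in MZ, and 7.87 and 8.0 in DZ. The animals agreed within 0.13 in every zone, and the level was 2.78-fold higher in DZ than in SZ (−1.48, SE 0.22, adjusted p = 0.0298). It passed in 6 of 12 alternative settings and lost whenever an array was left out, with adjusted p up to 0.137. MANF, an ER protein induced by the unfolded protein response, gave −1.19 for SZ minus DZ (adjusted p = 0.0603) and −0.93 for MZ minus DZ (adjusted p = 0.236). DNAJB11, a co-chaperone of HSPA5, gave −1.05 (adjusted p = 0.0796). Both passed in the dCHIP matrix, at −1.2 (adjusted p = 0.0374) and −1.33 (adjusted p = 0.0271). HYOU1, the large Hsp70 of the ER, gave −0.72 for SZ minus MZ (adjusted p = 0.54), FKBP7 −0.64 (adjusted p = 0.471), and CRELD2 −1.21 for MZ minus DZ (adjusted p = 0.448).

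Genes of the unfolded protein response itself did not pass. Of 15 measured, 0 were called in any comparison, with medians of −0.35 for SZ minus MZ, −0.43 for SZ minus DZ and −0.18 for MZ minus DZ. CREB3L1, an ER-bound transcription factor that in mouse bone raises type I collagen genes, read 5.48 and 6.70 in SZ, 8.35 and 7.40 in MZ, and 7.65 and 7.73 in DZ. Its SZ arrays lay below the other 4, with −1.78 for SZ minus MZ (SE 0.49, adjusted p = 0.337) and −1.60 for SZ minus DZ (SE 0.49, adjusted p = 0.170). TRIB3, a target of the stress response, gave −1.40 and −1.80 (adjusted p = 0.535 and 0.165), and DDIT3 (CHOP) −0.88 and TRIB3 −0.40 for MZ minus DZ (adjusted p = 0.494 and 0.866).

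Of 14 measured genes for procollagen export and for retrieval of ER proteins, 0 were called. KDELR3, a receptor that returns escaped chaperones to the ER, gave −0.56 for SZ minus MZ and −0.60 for SZ minus DZ (adjusted p = 0.589 and 0.279). MIA3 (TANGO1), which loads procollagen into transport carriers, gave −0.41 for SZ minus MZ (adjusted p = 0.686). The cargo receptor SURF4 gave −0.69 for SZ minus DZ (adjusted p = 0.239) and the coat protein SEC13 −0.60 for MZ minus DZ (adjusted p = 0.486), for which SURF4 gave −0.34 (adjusted p = 0.735).

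The chaperones' clients include the collagens. Of 14 measured collagen genes, 4 were lower in SZ than in DZ and 3 lower in MZ than in DZ, with 0 higher. Over all probesets the shares called in either direction were 2.75% and 0.704%. COL1A1 and COL1A2, the chains of bone and tendon collagen I, gave −5.82 and −5.87 for SZ minus DZ (adjusted p = 0.021 and 0.0169) and −7.77 and −9.58 for MZ minus DZ (adjusted p = 0.0215 and 0.00863). In MZ the COL1A2 probeset read 2.95 and 2.46, near the lower quartile of those arrays (2.80 and 2.77). The size of −9.58 is therefore uncertain, and the dCHIP matrix gave −6.44. Dimmer COL1A1 probesets gave −5.23, −5.37 and −0.40 for SZ minus DZ, the last at a mean level of 2.61. The second COL1A2 probeset gave −5.67 (adjusted p = 0.0593). The COL1A1 probeset used is, like that of COLGALT2, of a type that can match several related transcripts. Without the animal block COL1A1 did not pass in either comparison. COL10A1 of hypertrophic chondrocytes gave −4.86 and −7.53 (adjusted p = 0.041 and 0.026) and COL9A2, on the surface of cartilage fibrils, −1.74 for SZ minus DZ (adjusted p = 0.0452). COL1A2 and COL10A1 gave 3.71 and 2.67 for SZ minus MZ (adjusted p = 0.171 and 0.393). For SZ minus DZ the test was passed in 10 of 12 alternative settings for COL1A1, 11 for COL1A2, 8 for COL10A1 and 4 for COL9A2. COL2A1, the main client in cartilage, gave −0.31 (adjusted p = 0.54) and stood near the highest probeset of each array, at 13.69 to 14.15.

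**Figure D4:**
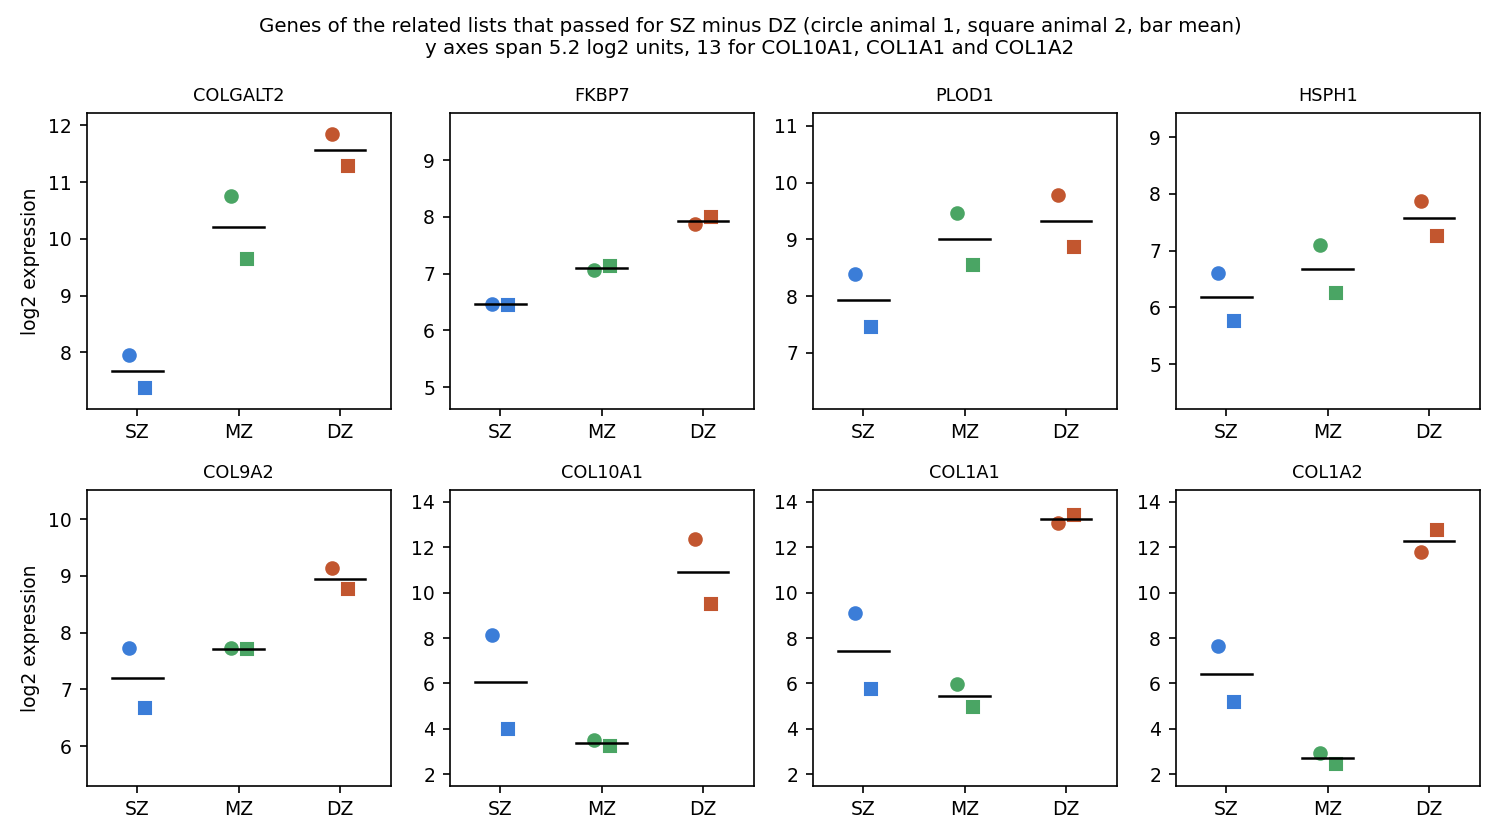
Log2 expression on every array of the 8 genes of the related lists that passed limma's test for SZ minus DZ. COLGALT2 lies at 7.37 to 7.96 in SZ, 9.64 to 10.76 in MZ and 11.28 to 11.85 in DZ, whereas COL10A1, COL1A1 and COL1A2 are lowest in MZ.

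Chaperones of the cytosol and mitochondria, outside the collagen pathway, had a median of 0.17 for SZ minus DZ beside 0.06 over all probesets. For MZ minus DZ the median of this list was −0.18, also beside 0.06. There 12 of its 17 genes lay below 0, beside 42.9% of all probesets. Of 17 measured, 1 was lower in SZ than in DZ and 16 did not pass. HSPH1, an Hsp110 exchange factor of the cytosol, read 6.61 and 5.76 in SZ, 7.10 and 6.26 in MZ, and 7.88 and 7.26 in DZ (SZ minus DZ −1.39, SE 0.23, adjusted p = 0.0373). It passed in 5 of 12 alternative settings and lost without the animal block and without any single array (adjusted p up to 0.237), and its 3 dimmer probesets gave −0.75, −2.10 and −0.08. DNAJB1, an Hsp40, gave 0.72 for SZ minus MZ and −1.27 for MZ minus DZ (adjusted p = 0.652 and 0.295), HSP90AB1 0.59 for SZ minus MZ (adjusted p = 0.652) and HSPA2 1.04 for MZ minus DZ (adjusted p = 0.284). Whether the ER and the cytosolic lists differ was not tested.

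**Figure D5:**
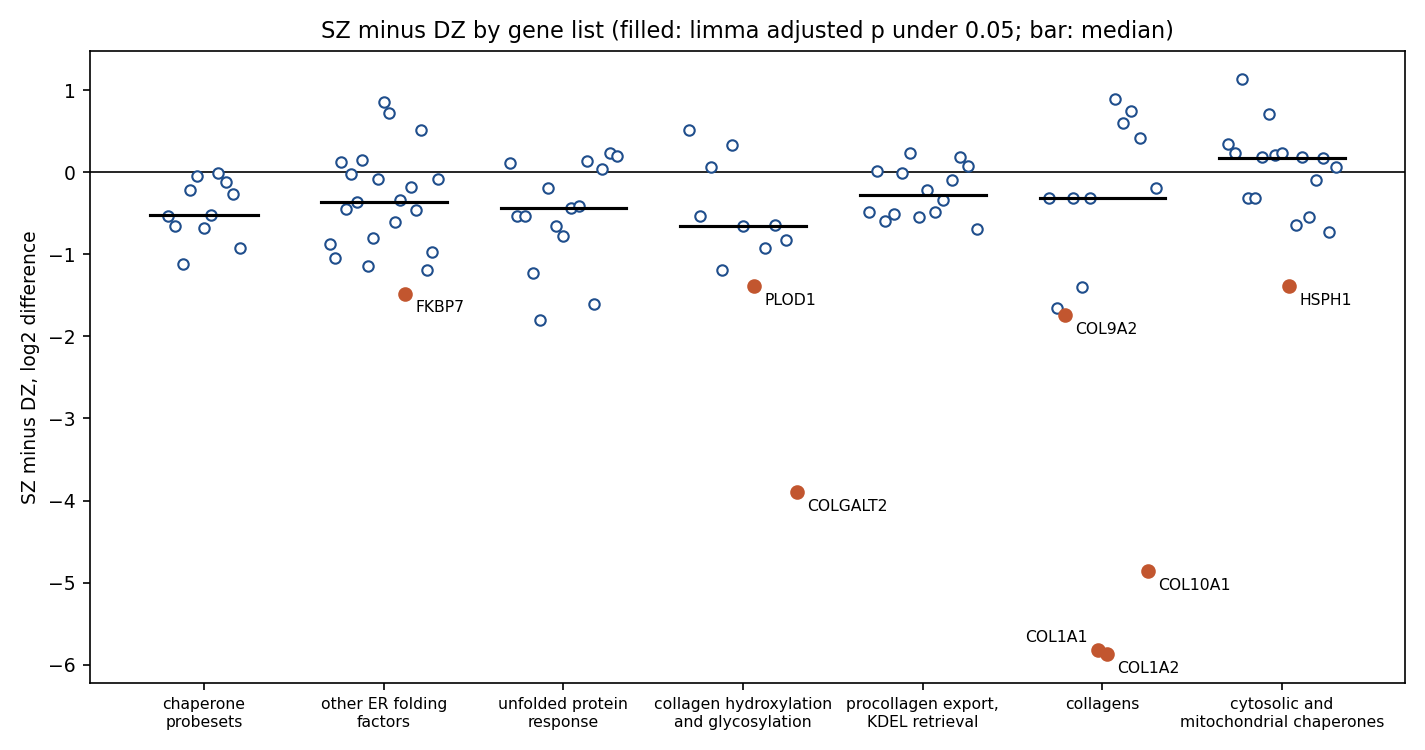
SZ minus DZ log2 difference of the 11 chaperone probesets and of the genes of 6 related lists, each gene by its brightest probeset. Filled points passed limma's test and bars are medians. They lie at −0.36 for other ER folding factors, −0.65 for collagen hydroxylation and glycosylation and 0.17 for cytosolic and mitochondrial chaperones. The bar of the chaperone probesets, at −0.52, counts every probeset of HSPA5 and PDIA4, so it is not on the basis of the other bars. With each chaperone gene by its brightest probeset, the middle value is that of CALR, −0.26.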

How the data were processed

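The log2 values tested are those of the deposited value table, 1 per probeset and array, made by the authors with RMA per the submitters' processing notes, which give no version. A second deposited matrix, also in log2, whose name carries dCHIP, was refitted for comparison and supplied the gene symbols. Other settings are not given in the sources used here. Neither table holds detection calls. The 112 control probesets were left out and no filter or further normalisation was applied. Symbols were updated through RefSeq synonyms (ARS-UCD2.0), and a gene in a list was represented by its brightest probeset.

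limma 3.58.1 in R 4.3.3 fitted zone with animal as a block to the 6 arrays (2 residual and 4.15 prior degrees of freedom), with two-sided p-values adjusted over 24016 probesets by Benjamini-Hochberg. The labels give same-numbered arrays to 1 animal; the animals' difference correlated between zones with r of 0.216 to 0.346. The procedure was also run on simulated data. A pass was required there only for the largest set changes, far above the chaperone differences, and for the number of false calls. That run is no evidence on differences as small as those of the chaperones. Alternatives were no block, the dCHIP matrix, a filter on dim probesets, quantile normalisation, median centring, a variance trend and leaving out each array. Of each related list, the text names up to 4 called genes per comparison by adjusted p, or else the 2 largest differences. P4HA1, P4HA2, COL2A1, DNAJB11, MANF for SZ minus DZ and the X-box binding protein 1-like probeset were added after their values were seen. For each member the 3 genes with the highest r are named, except 1 that is not reported here. Members, lists and tests were chosen with earlier results of these data known.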

Additional observations from a re-analysis of the deposited data

How the results depend on the processing

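No chaperone probeset passed limma's adjusted threshold in any of the 12 alternative settings, in any comparison or in the F test. The lowest adjusted p was 0.0949 for SZ minus DZ, 0.231 for MZ minus DZ and 0.576 for SZ minus MZ, and without the replicate block the lowest values were 0.281, 0.616 and 0.841. Signs of single uncalled differences changed in 8 of 132 cases for SZ minus DZ, 4 of 132 for MZ minus DZ and 19 of 132 for SZ minus MZ. For SZ minus MZ the sign changed in the dCHIP matrix for the second PDIA4 probeset (−0.17), P4HB (−0.24), CALR (−0.00) and SERPINH1 (0.01), and under quantile normalisation for HSP90B1 (0.00) and CALR (−0.01). For SZ minus DZ the dimmest PDIA4 probeset gave 0.07 under quantile normalisation and 0.01 under median centring. With an array left out, the differences ran, for SZ minus MZ, from −0.32 to 0.19 for the brightest HSPA5 probeset, −1.48 to 0.73 for the dimmest HSPA5 probeset, −0.16 to 0.08 for HSP90B1, −0.14 to 0.49 for the brightest PDIA4 probeset, −0.48 to 0.91 for the second PDIA4 probeset, −0.19 to 0.39 for P4HB, −0.19 to 0.25 for CALR and −0.58 to 0.24 for SERPINH1. For MZ minus DZ they ran from −1.85 to 0.36 for the dimmest HSPA5 probeset, −0.37 to 0.01 for PDIA3 and −0.47 to 0.02 for P4HB. For SZ minus DZ they ran from −0.23 to 0.15 for PDIA3, −0.27 to 0.25 for the dimmest PDIA4 probeset and −0.41 to 0.16 for P4HB. Counts over all probesets moved more. Without the block for animal they were 295 for SZ minus DZ, 62 for MZ minus DZ, 3 for SZ minus MZ and 169 for the F test, against 660, 169, 10 and 443 with it. In the dCHIP matrix they were 1262, 259, 135 and 828. With dim probesets left out, and so fewer tested, they were 286 for MZ minus DZ, 142 for SZ minus MZ and 746 for the F test, and with a variance trend 272 for MZ minus DZ and 99 for SZ minus MZ. Leaving out an array gave 204 to 646, 12 to 258, 0 to 31 and 154 to 434. Genes called in the related lists numbered 8 for SZ minus DZ, 3 without the block for animal and 1 to 4 with an array left out. For MZ minus DZ they numbered 3, 1 without the block and 1 to 3 with an array left out, and for SZ minus MZ 0, but 1 (COLGALT2) in the dCHIP matrix, with dim probesets left out and with a variance trend. The cause was not tested. With 2 arrays a zone, the 95% intervals of the chaperone probesets reached 0.54 to 1.39 log2 units to either side, and neither table holds detection calls.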

Other observations

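Further cartilage collagens came close to the threshold for SZ minus DZ. COL9A1, a chain of fibril-associated collagen IX, read 8.41 and 6.49 in SZ and 10.45 and 7.76 in DZ, a difference of −1.66 (adjusted p = 0.0571). COL11A2, a chain of collagen XI, read 8.70 and 7.13 in SZ and 10.05 and 8.57 in DZ (−1.40, adjusted p = 0.0596). In both genes the zones overlapped between the animals while DZ was above SZ within each. Both passed limma's test in the dCHIP matrix (−1.87, adjusted p = 0.0167, and −1.56, adjusted p = 0.036). COL3A1, a fibrillar collagen, went the other way, at 13.01 and 12.99 in SZ and 11.74 and 12.48 in DZ (0.89, adjusted p = 0.165).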
